A study of Homo sapiens with 12 samples.

Results

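The 9 genes described here encode the core of transforming growth factor beta (TGF-beta) signalling. They are the ligands TGFB1, TGFB2 and TGFB3, the receptors TGFBR1, TGFBR2 and TGFBR3, and the intracellular mediators SMAD3, SMAD4 and SMAD7. They were chosen by symbol as members of the pathway, with earlier results of these data known. All 9 of 9 were found among the 22784 gene symbols of the expression table. All 9 also passed the filter on low values, a normalized count of at least 10 in at least 3 libraries, which 14839 symbols passed.

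TGF-beta ligands are secreted in a latent complex and must be released from it before they can bind. The active ligand brings together the type II receptor TGFBR2 and the type I receptor TGFBR1, both serine/threonine kinases, and TGFBR1 then phosphorylates SMAD2 and SMAD3. These join SMAD4 and enter the nucleus to regulate transcription, while SMAD7 is induced by the pathway and restrains it. In the uterus the pathway is best known for driving extracellular matrix production and contractile gene expression in smooth muscle cells.

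The cells were SK-UT-1, an established line from a human uterine leiomyosarcoma, a malignant smooth muscle tumour. All groups came from this single line, so the comparisons describe 1 cell line. Cells received the vehicle DMSO, 5 µM JQ1 or 5 µM I-BET 762 for 48 h. Both compounds bind the bromodomains of the BET proteins, which read acetylated histones, and displace them from chromatin. JQ1 is a thienotriazolodiazepine and I-BET 762 a benzodiazepine. Strand-specific libraries of total RNA were sequenced, and the comparisons ask what each inhibitor does to the transcripts of the line. The labels list 4 libraries per group. Values were analysed for 3 DMSO libraries (replicates 13 to 15), 4 JQ1 libraries (17 to 20) and 3 I-BET 762 libraries (21 to 23). DMSO replicate 16 and I-BET 762 replicate 24 were not analysed here.

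Between 35564586 and 39658989 reads fell on genes in each library. The labels do not say that libraries of a group came from separate cultures, so p-values measure the spread between these libraries, which may be technical. Replicates differed beyond counting error in each pair (chi-square divided by the number of genes, 2.77 to 22.1), and the 3 pairs with JQ1 replicate 18 were the farthest apart (20.6 to 22.1). Results that changed without that library are given with it left out. The smooth muscle markers fixed for the check of the label were present in part. Of 10 markers, 9 were in the table and 8 were tested. DES went from 187 ± 0.570 normalized counts in DMSO to 7.79 ± 5.06 with JQ1 and 20.1 ± 1.47 with I-BET 762. TAGLN, CNN1, LMOD1, CALD1 and ACTA2 also had lower means with both inhibitors. MYLK went from 405 ± 20.9 to 220 ± 24.3 with JQ1 and 372 ± 18.0 with I-BET 762. Its I-BET 762 libraries (354 to 390) overlapped those of DMSO (382 to 422). Of the tested markers, only SMTN had no lower mean with either inhibitor, at 2324 ± 226, 2644 ± 224 and 2657 ± 85.9 in the same order. ACTG2 was near 0 with 1.56 ± 0.554 normalized counts in DMSO, and MYH11 was not analysed here. The summed level of the smooth muscle list lay between 20925 and 21519 in DMSO, between 10871 and 11520 with JQ1 and between 12192 and 12764 with I-BET 762. The 6 epithelial markers, 5 of them tested, summed to 1229 to 1294 in DMSO, 512 to 602 with JQ1 and 499 to 547 with I-BET 762. Most of the epithelial sum in DMSO was KRT19, at 741 ± 1.03, 246 ± 32.2 and 191 ± 9.25 in the same order. The 6 fibroblast markers, 4 of them tested, summed to 19049 to 23048, 11104 to 14540 and 14637 to 15975 in the same order, with DCN and LUM near 0. Most of this sum was the collagen gene COL1A2, at 18238 ± 2089, 10386 ± 1527 and 13130 ± 674. THY1 stood at 2148 ± 37.6, 1789 ± 100 and 2110 ± 16.1. Endothelial, leukocyte and erythroid markers stayed at 15.7 normalized counts or less per list and library. The lists moved in the direction of several members, and their part in the results was not tested. In bulk RNA, fewer cells of a type and less RNA per cell cannot be told apart.

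The upstream sequences of the ligand genes are shown first, because 2 of the ligands had the largest fold changes of the 9 genes while the third was not called. RefSeq promoter windows on GRCh38.p14 matched all 9 members with 24 annotated starts, and the 250 bases before the start were read. The windows are printed 5′ to 3′ on the strand of the gene for TGFB1 (chr19:41353923-41354172, minus strand), TGFB2 (chr1:218345086-218345335, plus strand) and the inner of the 2 annotated TGFB3 starts (chr14:75981996-75982245, minus strand). Capitals mark the CRE core TGACGT, the TATA box TATAAA and the GC box GGGCGG on either strand.
TGFB1: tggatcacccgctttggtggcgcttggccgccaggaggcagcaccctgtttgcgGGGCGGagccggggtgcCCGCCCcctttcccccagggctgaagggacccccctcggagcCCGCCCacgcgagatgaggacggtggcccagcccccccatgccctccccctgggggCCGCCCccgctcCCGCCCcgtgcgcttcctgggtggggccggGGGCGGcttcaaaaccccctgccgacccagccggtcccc
TGFB2: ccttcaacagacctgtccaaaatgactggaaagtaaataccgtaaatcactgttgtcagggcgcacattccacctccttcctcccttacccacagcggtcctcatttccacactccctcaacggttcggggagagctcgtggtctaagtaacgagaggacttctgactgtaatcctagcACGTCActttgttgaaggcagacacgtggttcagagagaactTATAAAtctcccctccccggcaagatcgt
TGFB3: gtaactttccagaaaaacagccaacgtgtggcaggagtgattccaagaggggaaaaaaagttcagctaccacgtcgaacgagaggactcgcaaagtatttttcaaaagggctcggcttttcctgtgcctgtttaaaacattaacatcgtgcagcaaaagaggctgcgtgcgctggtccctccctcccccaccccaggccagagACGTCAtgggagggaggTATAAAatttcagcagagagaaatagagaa

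The windows of TGFB2 and TGFB3 held the same pair of matches in the same order. In TGFB2 the CRE core began 71 bases and the TATA box 29 bases before the start. In TGFB3 they began 47 and 30 bases before it. TGFB1 had neither, and its window held 6 GC boxes, against 0 in the other two. GC content was 76.8% for TGFB1, 50.4% for TGFB2 and 49.2% for TGFB3. The matches marked in capitals do not overlap each other. The TGFB3 window at the outer start (chr14:75983012-75983261) held neither the CRE core nor the TATA box. In the windows of the other members there was no CRE core. The TATA box occurred there only before a start of SMAD7, by 35 bases, a gene that was not called. TGFBR2 and SMAD3, which were called lower with JQ1, had windows with GC boxes and none with a TATA box. Among 35116 RefSeq windows of the same length, 7.10% held a CRE core, 10.7% a TATA box, 0.681% both and 42.6% a GC box. The CRE core and the TATA box were searched after the sequences had been seen. The SMAD binding element CAGAC, present in 38.0% of windows, occurred at 243 and 53 bases before the TGFB2 start, and was absent from the printed TGFB1 and TGFB3 windows. The AP-1 site TGANTCA, in 6.57% of windows, was absent from all 3. These letters describe the windows and are not evidence of binding.

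TGFB1 encodes the most widely expressed of the ligands and lies at chr19:41301587-41353922 on the minus strand. Its normalized counts were 425, 370 and 305 in DMSO replicates 13, 14 and 15. With JQ1 they were 566, 393, 637 and 476 in replicates 17, 18, 19 and 20. With I-BET 762 they were 375, 369 and 366 in replicates 21, 22 and 23. The 3 I-BET 762 libraries lay inside the range of DMSO, and 3 of the 4 JQ1 libraries lay above it, with replicate 18 inside. The log2 difference of JQ1 from DMSO was 0.49 ± 0.14 (SE; adjusted p = 0.00503, limma with Benjamini-Hochberg adjustment), a fold of 1.40 that stayed under the 1.5-fold threshold for a call. It ranged from 0.30 to 0.61 over all alternatives, and with equal library totals it was 0.30 with an adjusted p of 0.0978 (limma). Without DMSO replicate 13 or JQ1 replicate 18 it passed the fold threshold, at 0.60 and 0.61. For I-BET 762 the log2 difference was 0.03 ± 0.15 (adjusted p = 0.889, limma), and its sign turned with equal totals (-0.07), with equal upper quartiles (-0.01) and without DMSO replicate 15 (-0.10). Of its merged exons, 215 bases (6.59%) are shared with HNRNPUL1 on the opposite strand.

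TGFB2, a ligand with a prominent role in development, lies at chr1:218345336-218444619 on the plus strand. It gave normalized counts of 1525, 1489 and 1582 in DMSO. The 4 JQ1 libraries gave 433, 407, 468 and 373. The 3 I-BET 762 libraries gave 736, 698 and 692. The 3 groups were fully separated, with DMSO highest, I-BET 762 intermediate and JQ1 lowest. TGFB2 fell to 27.4% of the DMSO level with JQ1 (log2 fold change -1.87 ± 0.07, adjusted p = 3.97e-12, limma with Benjamini-Hochberg adjustment). With I-BET 762 it fell to 46.3% (log2 fold change -1.11 ± 0.08, adjusted p = 8.91e-09, limma). The direct difference of JQ1 from I-BET 762 was -0.76 ± 0.07 on the log2 scale (adjusted p = 4.31e-06, limma). Its exons share 1371 bases (22.7%) with TGFB2-OT1 on the same strand and 701 bases (11.6%) with TGFB2-AS1 on the opposite strand, neither of which is in the table.

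TGFB3, the third ligand, lies at chr14:75958097-75983011 on the minus strand and had the largest fold changes among the 9 genes against DMSO. Its DMSO libraries held 317, 312 and 281 normalized counts. JQ1 libraries held 62.6, 57.7, 73.0 and 82.2, and I-BET 762 libraries 70.8, 60.2 and 96.5. Both treated groups lay wholly below DMSO and overlapped each other. TGFB3 fell to 22.8% of the DMSO level with JQ1 (log2 fold change -2.13 ± 0.16, adjusted p = 9.23e-09, limma) and to 24.8% with I-BET 762 (-2.01 ± 0.18, adjusted p = 8.74e-08, limma). The difference between the inhibitors was -0.12 on the log2 scale, with a 95% interval from -0.47 to 0.23 and an adjusted p of 0.621 (limma), and turned to 0.06 without I-BET 762 replicate 23. The TGFB3 reads behind the treated values were few, from 53 to 98 per library. It shares 163 exon bases (3.12%) with TGFB3-AS1 on the opposite strand.

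**Figure D1:**
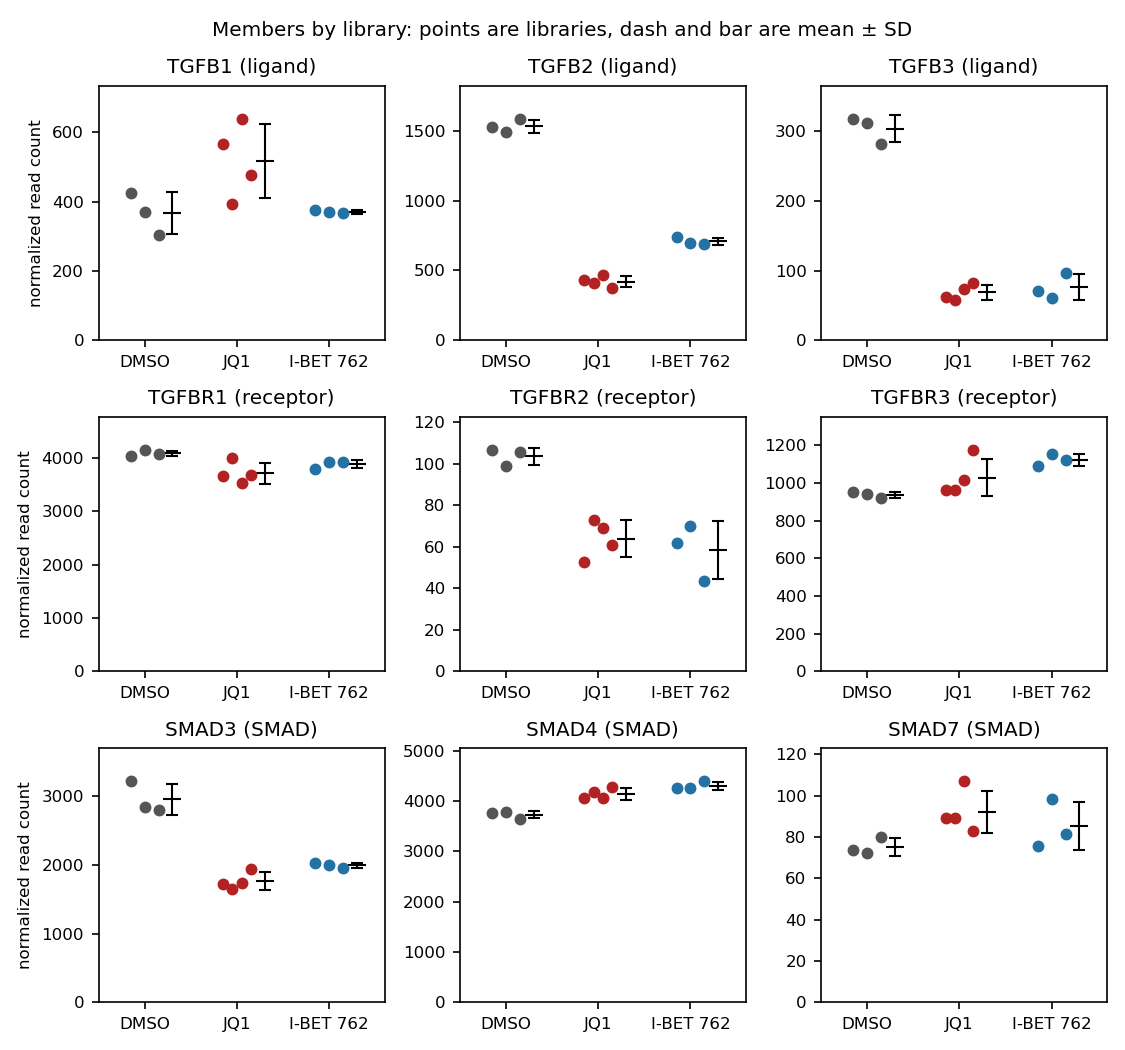
Normalized read count of each of the 9 genes (vertical axes, starting at 0) in each library, by treatment. Points are single libraries, and the dash with its bar is the mean ± SD (3 DMSO, 4 JQ1 and 3 I-BET 762 libraries). TGFB2, TGFB3, TGFBR2, SMAD3 and, by a small margin, TGFBR1 lie lower in every treated library than in any DMSO library. TGFB1 is spread between 393 and 637 with JQ1.

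Because the ligands moved unequally, their relative amounts changed. Counts were divided by the kilobases of merged exons, which include every annotated exon, so comparisons between genes depend on the annotation. Per kilobase, the 3 ligands together came to 424 ± 17.6 normalized counts in DMSO, 241 ± 38.5 with JQ1 and 245 ± 5.10 with I-BET 762 (mean ± SD). TGFB2 made up 56.9%, 58.7% and 64.0% of this sum in the DMSO libraries, 27.9%, 33.9%, 27.0% and 27.6% in the JQ1 libraries and 48.6%, 48.1% and 46.7% in the I-BET 762 libraries. TGFB1 made up 29.4%, 27.0% and 22.9% in DMSO, 67.5%, 60.6%, 68.1% and 65.3% with JQ1 and 45.9%, 47.1% and 45.8% with I-BET 762. Thus TGFB2 was the main ligand transcript in every DMSO library and TGFB1 in every JQ1 library, while with I-BET 762 TGFB2 stayed narrowly ahead of TGFB1 in all 3 libraries. This order rests on the division by length. In the undivided normalized counts TGFB2 was ahead of TGFB1 in JQ1 replicate 18 as well (407 against 393), and with I-BET 762 its mean of 709 stood beside 370 for TGFB1. TGFB3 held 13.7% ± 0.529 of the sum in DMSO, 5.54% ± 1.08 with JQ1 and 5.92% ± 1.43 with I-BET 762. A two-sided exact permutation test of each share reached the smallest p that these group sizes allow, 0.0571 for 4 against 3 libraries and 0.1 for 3 against 3, in 8 of the 9 comparisons. Adjusted over the 9 exact tests these were 0.103 and 0.1125, so the design cannot bring a share below 0.05. The TGFB3 share did not separate JQ1 from I-BET 762 (exact permutation p = 0.686).

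**Figure D2:**
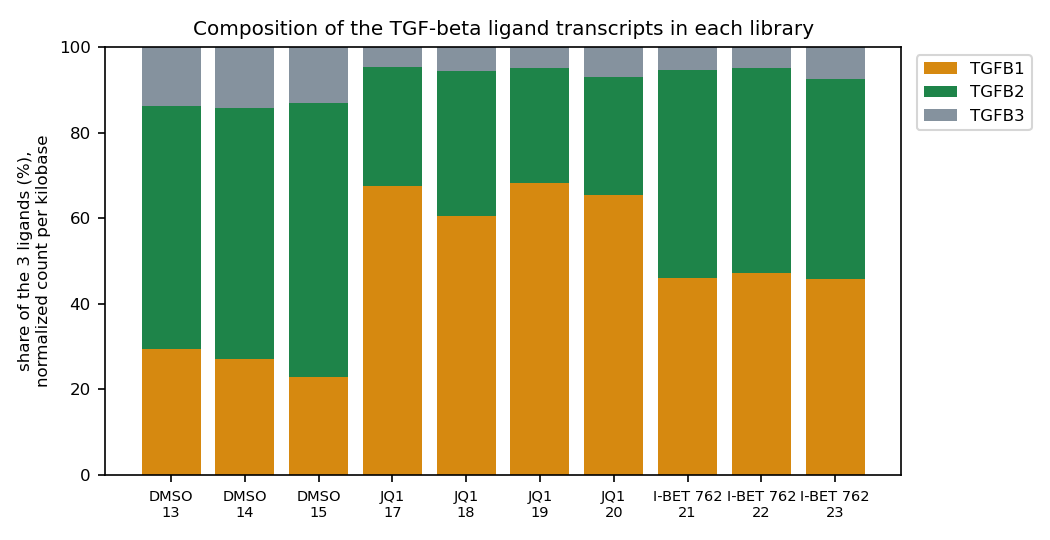
Share of TGFB1, TGFB2 and TGFB3 in their summed normalized count per kilobase (vertical axis, percent), 1 bar per library. TGFB2 takes 56.9% to 64.0% of the DMSO bars, and TGFB1 takes 60.6% to 68.1% of the JQ1 bars, with the I-BET 762 bars between them.

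Among the receptors, TGFBR1 (chr9:99104038-99154192, plus strand), the type I kinase, had the highest level per kilobase of the 9 genes in all 3 groups. It counted 4045, 4146 and 4071 in DMSO, 3655, 3993, 3535 and 3673 with JQ1 and 3800, 3931 and 3928 with I-BET 762. All treated libraries lay below the lowest DMSO library, by a small margin. The log2 difference was -0.14 ± 0.05 for JQ1 (adjusted p = 0.0153, limma) and -0.07 ± 0.05 for I-BET 762 (adjusted p = 0.228, limma), both under 1.5-fold.

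TGFBR2 (chr3:30606601-30694142, plus strand), the type II kinase that binds ligand first, had the lowest level per kilobase of the 9 genes in every group. Its counts were 106.5, 98.9 and 105.6 in DMSO, 52.7, 72.9, 69.0 and 60.9 with JQ1 and 62.0, 70.2 and 43.3 with I-BET 762. No treated library reached the DMSO range, and the treated groups overlapped. TGFBR2 fell with JQ1 (log2 fold change -0.70 ± 0.18, adjusted p = 0.00225, limma) and with I-BET 762 (-0.84 ± 0.19, adjusted p = 0.00119, limma). The inhibitors differed by 0.14 on the log2 scale, with a 95% interval from -0.23 to 0.52 (adjusted p = 0.593, limma), and by -0.06 without I-BET 762 replicate 23.

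TGFBR3 (chr1:91680343-91906335, minus strand), also called betaglycan, is a coreceptor that presents TGFB2 in particular to TGFBR2. It gave 953, 941 and 922 normalized counts in DMSO, 964, 961, 1018 and 1175 with JQ1 and 1088, 1152 and 1123 with I-BET 762. Every treated library was above every DMSO library, narrowly so for JQ1 replicates 17 and 18. The log2 difference of JQ1 was 0.13 ± 0.07 (adjusted p = 0.106, limma) and turned to -0.06 with equal library totals. That of I-BET 762 was 0.26 ± 0.07 (adjusted p = 0.00678, limma), under 1.5-fold, and 0.16 with equal totals.

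SMAD3 (chr15:67063763-67195173, plus strand), the receptor-activated mediator that binds DNA directly, counted 3221, 2844 and 2799 in DMSO. With JQ1 the counts were 1722, 1654, 1734 and 1948, and with I-BET 762 they were 2032, 1997 and 1962. Neither treated group overlapped DMSO, and each I-BET 762 library lay above each JQ1 library. SMAD3 fell to 59.7% of DMSO with JQ1 (log2 fold change -0.74 ± 0.06, adjusted p = 2.70e-08, limma). With I-BET 762 it stood at 67.7% (log2 difference -0.56 ± 0.07, adjusted p = 2.68e-06, limma), just short of the 1.5-fold threshold, and it passed that threshold with equal totals (-0.66), with equal upper quartiles (-0.60) and without DMSO replicate 14 (-0.59) or 15 (-0.60). The direct difference was -0.18 ± 0.06 (adjusted p = 0.0431, limma), under 1.5-fold.

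SMAD4 (chr18:51028528-51085045, plus strand), the shared partner of the receptor-activated SMADs, gave 3767, 3782 and 3647 in DMSO, 4054, 4181, 4055 and 4285 with JQ1 and 4252, 4259 and 4396 with I-BET 762. All treated libraries were above DMSO by a small amount. The log2 difference was 0.15 ± 0.04 with JQ1 (adjusted p = 0.00494, limma), which became -0.03 with equal totals, and 0.21 ± 0.05 with I-BET 762 (adjusted p = 0.00107, limma), which became 0.11 with equal totals. Of the SMAD4 exons, 967 bases (4.93%) are shared with a protein-coding gene model on the same strand. SMAD7 (chr18:48919853-48950965, minus strand), the inhibitory SMAD and itself a TGF-beta target, was low, with 73.6, 72.1 and 80.1 in DMSO, 89.0, 89.2, 107.0 and 83.2 with JQ1 and 75.8, 98.3 and 81.7 with I-BET 762. The JQ1 libraries were all above DMSO and the I-BET 762 libraries overlapped it. The log2 differences of SMAD7, 0.28 ± 0.14 with JQ1 (adjusted p = 0.0897, limma) and 0.17 ± 0.15 with I-BET 762 (adjusted p = 0.355, limma), did not pass the test.

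With JQ1, 4 of the 9 genes were called (adjusted p under 0.05 and a fold over 1.5), all lower, against 36.1% of all tested genes called, 22.8% lower and 13.3% higher. Without DMSO replicate 13 or without JQ1 replicate 18 the count was 5, with TGFB1 called higher. With I-BET 762, 3 of 9 were called, all lower, against 26.9% called, 17.9% lower and 8.96% higher. Between the inhibitors 1 of 9, TGFB2, was called lower with JQ1, against 5.31% called, 3.59% lower and 1.73% higher. On the adjusted p alone, 7 of 9 passed with JQ1 (5 lower and 2 higher), against 71.7% of all tested genes (35.6% lower and 36.0% higher). With I-BET 762, 6 of 9 passed (4 lower and 2 higher), against 61.1% (31.3% lower and 29.9% higher), and between the inhibitors 3 of 9 (2 lower and 1 higher), against 27.3% (14.0% lower and 13.3% higher). The libraries of the groups did not overlap for 8, 7 and 3 of the 9 genes in these comparisons, against 68.4%, 71.0% and 33.8% of all tested genes. The median log2 difference of the 9 genes was -0.14 with JQ1 and -0.07 with I-BET 762, beside 0.01 and 0.00 over all tested genes. Both inhibitors were compared with the same DMSO libraries, so their values are not independent of each other. Scaling the libraries to equal totals moved the median of all tested genes to -0.18 with JQ1, -0.10 with I-BET 762 and -0.09 between the inhibitors. The share of all calls that were lower went from 63.1% to 77.5% with JQ1, from 66.7% to 75.5% with I-BET 762 and from 67.5% to 82.0% in the direct comparison.

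**Figure D3:**
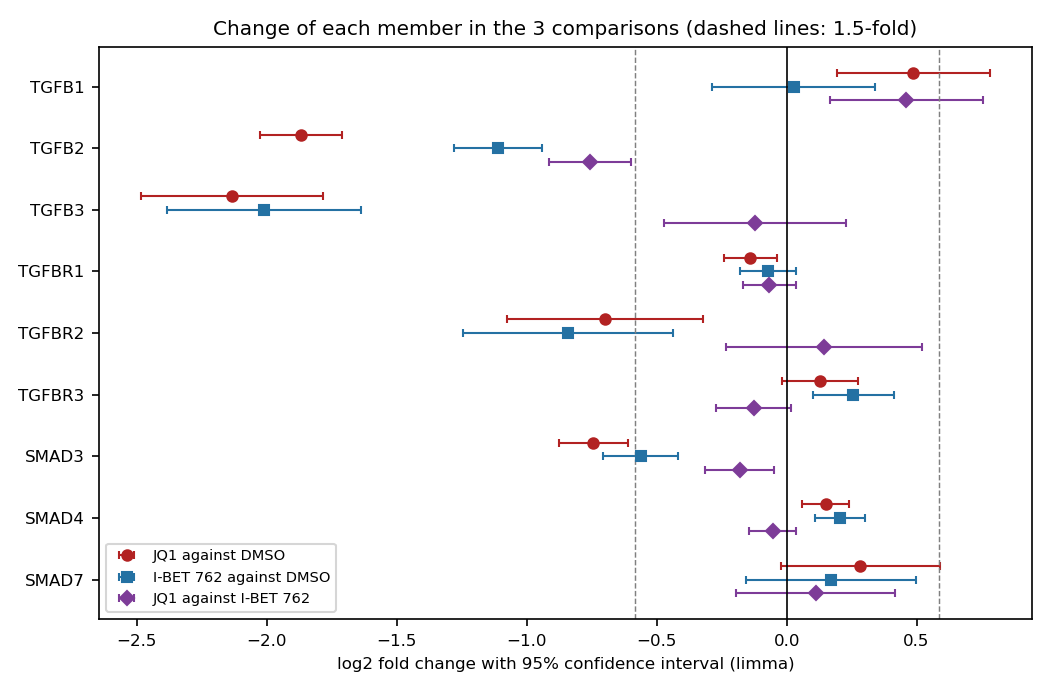
Log2 fold change (horizontal axis) of each of the 9 genes with its 95% confidence interval from limma, for JQ1 against DMSO, I-BET 762 against DMSO and JQ1 against I-BET 762. Dashed lines mark 1.5-fold. TGFB2 and TGFB3 lie beyond -1 with both inhibitors, and TGFB2 alone lies past the dashed line in the direct comparison.

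Per kilobase of merged exons, the order of levels in DMSO was TGFBR1 (512 ± 6.58), SMAD3 (295 ± 23.2), TGFB2 (253 ± 7.69), SMAD4 (190 ± 3.76), TGFB1 (112 ± 18.4), TGFBR3 (109 ± 1.83), TGFB3 (58.0 ± 3.67), SMAD7 (19.1 ± 1.07) and TGFBR2 (15.1 ± 0.605). The libraries of TGFB1 and TGFBR3 overlapped and the other neighbours did not. With JQ1 the order was TGFBR1 (465 ± 24.5), SMAD4 (211 ± 5.70), SMAD3 (176 ± 12.7), TGFB1 (159 ± 32.6), TGFBR3 (120 ± 11.7), TGFB2 (69.5 ± 6.64), SMAD7 (23.3 ± 2.62), TGFB3 (13.2 ± 2.09) and TGFBR2 (9.33 ± 1.31). SMAD3 overlapped TGFB1, and TGFB1 overlapped TGFBR3. With I-BET 762 the order was TGFBR1 (486 ± 9.34), SMAD4 (219 ± 4.16), SMAD3 (199 ± 3.50), TGFBR3 (131 ± 3.72), TGFB2 (117 ± 3.95), TGFB1 (113 ± 1.36), SMAD7 (21.6 ± 2.95), TGFB3 (14.5 ± 3.57) and TGFBR2 (8.54 ± 2.01), with overlap of TGFB2 and TGFB1 alone. TGFB2 therefore moved from the third place in DMSO to the sixth with JQ1 and the fifth with I-BET 762, and SMAD4 from the fourth to the second with both. These places rest on the annotated lengths, of which that of SMAD4 was the longest (19606 bases). In the undivided normalized counts SMAD4 was already above SMAD3 in DMSO (3732 against 2955). There it was also above TGFBR1 with JQ1 (4144 against 3714) and with I-BET 762 (4302 against 3886). TGFBR1 lay above 78.0% of 14394 tested genes with a length in DMSO, and TGFBR2 above 16.5%.

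For each of the 9 genes, the tested gene with the most similar log2 values over the 10 libraries was found by Pearson correlation, as a description. The points share their libraries and the treatment groups. TGFB2 was most like BACE2 (r = 0.996), TGFB3 most like SPINT1 (r = 0.995), SMAD3 most like PALD1 (r = 0.994) and SMAD4 most like NEU3 (r = 0.993). TGFBR2 was most like ITGAX (r = 0.980), TGFBR1 most like RIT1 (r = 0.977), TGFBR3 most like RCC2 (r = 0.970), TGFB1 most like HSF1 (r = 0.954) and SMAD7 most like EIF4A1P4 (r = 0.899), a pseudogene whose reads cannot be told apart with certainty from those of its parent gene. After the group means were removed, the correlation of TGFB2 with BACE2 was 0.580 and that of TGFBR1 with RIT1 0.943, so the first rested more on the groups than the second.

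Beyond the 9 genes, 89 other genes of the pathway were listed by role, of which 86 were in the table and 71 were tested. These lists were also chosen with earlier results of these data known. With JQ1, 14 of the 71 rose and 21 fell, and with I-BET 762, 8 rose and 19 fell, shares of 49.3% and 38.0% called beside 36.1% and 26.9% of all tested genes. The median log2 difference was 0.02 with JQ1 and -0.05 with I-BET 762. The named genes are those called with both inhibitors (25 genes) or between them (11 genes), and SMAD2. Of the genes named below, ACVRL1, LDLRAD4, INHA and IL11 passed the filter on low values only with their DMSO libraries. ACVR1C passed it only through treated libraries. The direction of the calls of these genes is therefore not independent of the filter, and they are part of the counts of their lists. Where a gene is given with a pair of log2 fold changes, the first is JQ1 against DMSO and the second I-BET 762 against DMSO, and adjusted p-values are from limma with Benjamini-Hochberg adjustment.

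In the latency and activation list every call against DMSO was lower. Of its 10 tested genes, 6 fell with each inhibitor, and 5 of these fell with both, beside 22.8% of all tested genes called lower with JQ1 and 17.9% with I-BET 762. The other calls, named after their values were seen, were LTBP4 with JQ1 (-0.66) and LTBP3 with I-BET 762 (-0.96). LTBP4 also stood lower with I-BET 762 (-0.25, adjusted p = 0.0175, limma), under 1.5-fold. LTBP3 stood at -0.60 with JQ1 (adjusted p = 0.0690, limma), with JQ1 libraries spread from 96.8 to 270 normalized counts. Neither gene was called between the inhibitors. On the adjusted p alone (limma), 2 of the 10 were higher and 6 lower with JQ1. With I-BET 762, 2 were higher and 7 lower. Over all tested genes, 36.0% were higher and 35.6% lower with JQ1, and 29.9% and 31.3% with I-BET 762. The higher genes were the integrin subunits ITGAV (0.32 and 0.24) and ITGB5 (0.24 and 0.20), under 1.5-fold and named after their values were seen. LTBP1, which tethers latent TGF-beta to the matrix, fell by log2 fold changes of -1.19 and -0.95. LTBP2, of the same gene family, fell by -2.50 and -2.28. NRROS, which anchors latent TGF-beta on the cell surface, fell from 65.5 ± 7.38 normalized counts in DMSO to 13.5 ± 6.57 with JQ1 and 16.5 ± 6.46 with I-BET 762. FURIN, the convertase that cleaves the TGF-beta precursor, fell by log2 fold changes of -0.86 and -1.10. THBS1, thrombospondin 1, an activator of latent TGF-beta, went from 9101 ± 237 in DMSO to 2080 ± 172 with JQ1 and 1709 ± 221 with I-BET 762. ITGB8, the beta subunit of an activating integrin, passed in neither comparison with DMSO (0.44 and -0.36), but was higher with JQ1 than with I-BET 762 by 0.81 ± 0.22 (adjusted p = 0.0147, limma). That call was lost without I-BET 762 replicate 21 (0.62, adjusted p = 0.0893, limma).

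Among the 9 tested other receptors and receptor regulators, 4 fell and 1 rose with JQ1, and 4 fell with I-BET 762, beside the same background of 22.8% lower and 13.3% higher with JQ1 and 17.9% lower with I-BET 762. ACVRL1, the type I receptor ALK1, held 16.5 ± 1.74 normalized counts in DMSO and at most 1 read in any treated library, which makes it at least 5.00-fold lower with JQ1 and at least 5.48-fold lower with I-BET 762 against a floor of 3 reads per library. CD109, a coreceptor that dampens signalling, fell by -1.73 and -1.44, TGFBRAP1, which associates with the receptors and SMAD4, by -1.63 and -1.23, and LDLRAD4, an inhibitor of SMAD phosphorylation, by -2.52 and -1.53. BAMBI, a decoy receptor, rose with JQ1 from 79.3 ± 13.8 to 173 ± 4.82 (log2 fold change 1.13, adjusted p = 2.31e-06, limma), stood at 101 ± 14.8 with I-BET 762 (0.35, adjusted p = 0.0531, limma), and differed between the inhibitors by 0.78 ± 0.14 (adjusted p = 0.000822, limma).

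Of 17 tested genes among the other SMADs, cofactors and ubiquitin ligases, 3 rose and 1 fell with JQ1, and 1 rose and 1 fell with I-BET 762. These are 23.5% and 11.8% of the list, beside 36.1% and 26.9% of all tested genes. TGIF2, a corepressor of SMAD complexes, fell with both (-1.33 and -0.90). TRIM33, a ubiquitin ligase that acts on SMAD4, rose with both (0.64 and 0.60), but stayed under 1.5-fold with equal totals (0.46 and 0.51), with equal upper quartiles (0.58 and 0.57) and with I-BET 762 without its replicate 23 (0.58). SKI, a corepressor (0.92), and USP15, a deubiquitinase (0.71), rose with JQ1 and are named after their values were seen, with values of 0.52 and 0.44 with I-BET 762 that stayed under 1.5-fold. SMAD2, which shares the role of SMAD3, was not called. It had 8981 ± 119 normalized counts in DMSO, 7917 ± 378 with JQ1 (-0.18, adjusted p = 0.00171, limma) and 9056 ± 15.3 with I-BET 762 (0.01, adjusted p = 0.841, limma), where the sign turned with equal totals (-0.08) and equal upper quartiles (-0.02).

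In the activin and nodal branch, which uses the same SMADs, 7 of 15 genes were tested. With JQ1, 2 rose and 1 fell, and with I-BET 762, 2 rose and 2 fell, which is 42.9% and 57.1% called beside 36.1% and 26.9% of all tested genes. INHA, the inhibin alpha subunit, named after its values were seen, fell with I-BET 762 (-1.72) and stood at -0.91 with JQ1 (adjusted p = 0.111, limma). Its normalized counts were low, at 16.3 ± 5.11 in DMSO, 9.01 ± 5.20 with JQ1 and 4.61 ± 2.99 with I-BET 762, which is near the floor. ACVR1C, the type I receptor ALK7, was at the floor in DMSO (1.57 ± 0.569, at most 2 reads) and was at least 8.68-fold higher with JQ1 (25.2 ± 1.96) and at least 6.13-fold higher with I-BET 762 (17.8 ± 3.51). Its type II partners moved apart. ACVR2A rose from 226 ± 5.10 to 604 ± 39.0 and 509 ± 16.8, and ACVR2B fell from 613 ± 57.5 to 260 ± 33.2 and 343 ± 30.6. None of the 6 genes of the TAK1 branch, the kinase route that does not use SMADs, was called with limma in any of the 3 comparisons, nor with limma-voom on the recovered reads. At an unadjusted p under 0.05, 5 of 6 passed with each inhibitor and 2 of 6 between them, at changes under 1.5-fold. On the adjusted p the counts were also 5, 5 and 2, beside 71.7%, 61.1% and 27.3% of all tested genes.

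The textbook target genes moved in both directions. Of 22 tested, 8 rose and 9 fell with JQ1, beside 13.3% higher and 22.8% lower over all tested genes. With I-BET 762, 5 rose and 6 fell, beside 8.96% higher and 17.9% lower. The matrix genes COL1A1 (-3.44 and -2.18), COL3A1 (-3.45 and -2.34) and COL4A1 (-1.18 and -1.02) fell, and COL3A1 went from 28783 ± 1204 normalized counts in DMSO to 2645 ± 264 with JQ1 and 5673 ± 392 with I-BET 762. The contractile genes ACTA2 (-1.21 and -1.08) and TAGLN (-3.67 and -3.34), which are also on the smooth muscle marker list, fell too. The cytokine IL11 also fell with both, from 31.7 ± 2.97 normalized counts in DMSO to 6.12 ± 2.96 with JQ1 and 2.99 ± 2.67 with I-BET 762, levels near the floor at which the fitted fold depends on the pseudocount (log2 fold changes of -2.33 and -3.24 with 1 added, -1.77 and -2.25 with 5 added). By contrast, CCN2 (2.81 and 1.23) and CCN1 (1.42 and 0.95), matricellular proteins, FN1 (0.95 and 0.80), which encodes fibronectin, ANGPTL4 (2.02 and 1.20) and the scaffold gene NEDD9 (1.91 and 1.65) rose with both inhibitors. CCN2 went from 260 ± 29.1 to 1825 ± 93.3 with JQ1 and 613 ± 95.3 with I-BET 762.

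**Figure D4:**
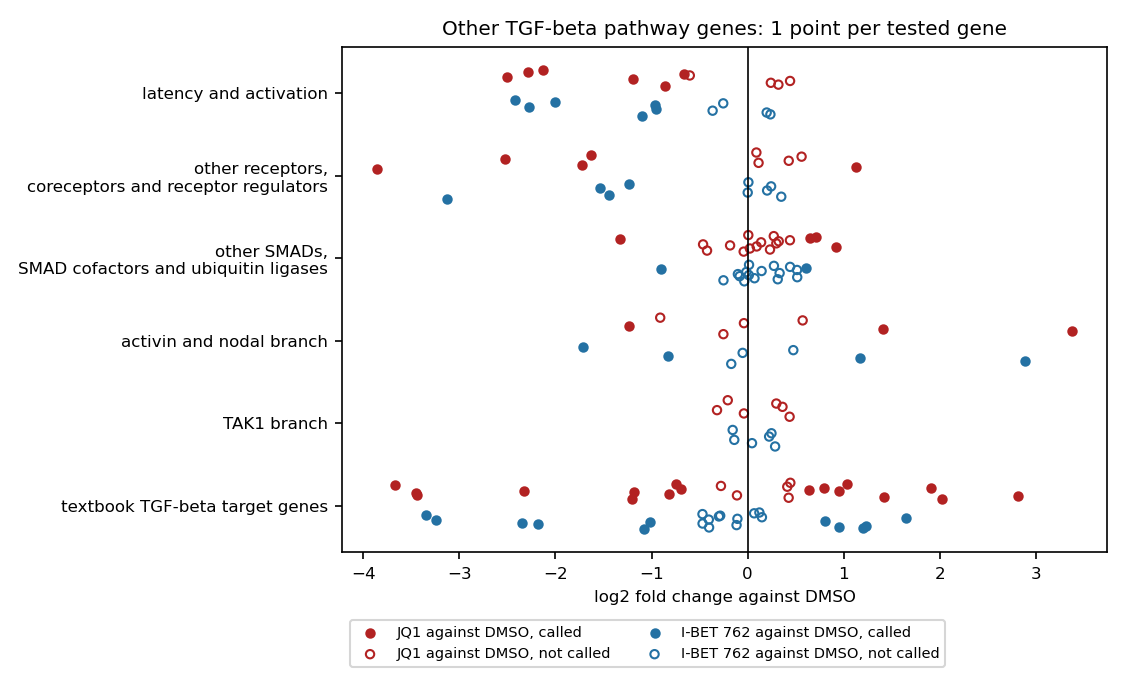
Log2 fold change against DMSO (horizontal axis) of each tested pathway gene, by list, for JQ1 (red) and I-BET 762 (blue). Filled points were called and open points were not. In the latency list, 6 of 10 genes are called with each inhibitor, all lower, whereas the target list has called points on both sides of 0.

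In the direct comparison of the inhibitors, 11 of the 71 pathway genes were called, 8 higher and 3 lower with JQ1, against 5.31% of all tested genes. Besides ITGB8 and BAMBI, all were target genes. CCN2 was higher with JQ1 by 1.58 ± 0.10 on the log2 scale, JUNB, an AP-1 subunit, by 1.04 ± 0.16, TIMP1, a metalloproteinase inhibitor, by 0.97 ± 0.06, BHLHE40, a transcriptional repressor, by 0.83 ± 0.11 and ANGPTL4 by 0.82 ± 0.09. COL1A1 (-1.26 ± 0.26), COL3A1 (-1.10 ± 0.07) and LMCD1 (-0.59 ± 0.15), a transcriptional cofactor, were lower with JQ1. The LMCD1 difference lies just past the fold threshold and did not pass it without JQ1 replicate 19 or 20 or I-BET 762 replicate 23, at -0.51 to -0.58. JUNB was spread within JQ1, at 2843 and 2851 in replicates 17 and 19 and 1695 and 1701 in replicates 18 and 20, against 1323 to 1518 in DMSO and 985 to 1166 with I-BET 762. Its log2 difference of JQ1 from DMSO was 0.63 ± 0.16 and came to 0.51 without JQ1 replicate 17 or 19, 0.58 without DMSO replicate 13, 0.45 with equal totals and 0.57 with equal upper quartiles, each under 1.5-fold. TIMP1 (1.04) and LMCD1 (-0.70) were called with JQ1 against DMSO, and had log2 differences with I-BET 762 of 0.07 and -0.11 that did not pass the test, where TIMP1 turned to -0.03 with equal totals.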

How the data were processed

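The deposited unit is log2(normalized read count + 1), with 1 value per gene symbol in each library. The authors made these log2 values by trimming with Trimmomatic, aligning to hg38 with HISAT2 2.2.1, counting with featureCounts 2.0.3 and normalizing with DESeq2, according to the submitters' processing notes and the study's methods. The methods name Gencode V41 as the annotation and state that outlier samples were excluded. The strand setting of the counting is not given in the sources used here.

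The treatment named in the labels set the groups. The log2 and the added 1 were undone, and within each library 99.7% to 99.8% of the values were whole multiples of 1 step (tolerance 0.01), which gave the reads behind them. A count of 0 allows up to 3 reads, or 2.73 to 3.30 normalized counts, and this floor covers counting error only. The log2 values of the 10 libraries were fitted in 1 linear model with limma 3.58.1 in R 4.3.3, with an intensity trend and Benjamini-Hochberg adjustment over the 14839 tested symbols. No count model was fitted. The main fit took the deposited log2 values, and the recovered reads were fitted with limma-voom as an alternative. A call needed an adjusted p under 0.05 and a fold over 1.5. Fold changes are on the log2 scale of the count plus 1, which understates those of low genes. Errors on log2 values are SEs and other errors are SDs. The code was tested on simulated data.

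Levels per kilobase used the merged exon lengths of Gencode V44 on GRCh38, and gene positions come from the same annotation. Ligand shares were compared with two-sided exact permutation tests. Named genes were the 9 members, listed pathway genes called with both inhibitors or between them, SMAD2, and the gene most like each member, with exceptions said to be such. A gene of the lists that met this rule is counted but not reported here by name. The members and lists were chosen with earlier results of these data known. Protein sequences were not analysed here. Permutation tests used scipy 1.17.1 and tables pandas 2.3.3 with numpy 2.4.6, under Python 3.11.15, and figures matplotlib 3.10.9. Alternatives covered the pseudocount, the filter, the scaling, the trend, the libraries in the fit, limma-voom on recovered reads, the fold threshold and leaving out each library.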

Additional observations from a re-analysis of the deposited data

Results flagged for a closer look

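In 5 of the 44 JQ1 groups of 4 libraries that were examined, 1 library stood far from the others by Dixon's criterion, which chance meets in about 1 in 20 groups. The TGFB2 share of the ligands per kilobase was 33.9% in JQ1 replicate 18, with the nearest library at 27.9%. COL3A1 reached 3039 normalized counts in JQ1 replicate 20, with the nearest at 2549. NRROS reached 23.3 in JQ1 replicate 20, with the nearest at 11.0. ACVR2A reached 662 in JQ1 replicate 18, with the nearest at 590. ACVRL1 was at 1.10, a single read, in JQ1 replicate 17 and at 0 in the other JQ1 libraries.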

How the results depend on the processing

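No paired analysis was possible because the replicate numbers 13 to 24 all differ between the groups. Without the fold threshold, calls among the 9 genes were 7 with JQ1, 6 with I-BET 762 and 3 between the inhibitors, among the pathway genes 58, 51 and 33, and among all tested genes 10633, 9073 and 4047. With a fold over 2, limma called 2 of the 9 genes with JQ1 and 0 between the inhibitors, where none of the 9 reached 2-fold at any p, 4 pathway genes between the inhibitors, and 2958, 2108 and 206 of all genes. A mean normalized count of at least 100 left 3359, 2338 and 418 calls over all genes, 17 pathway genes with I-BET 762 and 7 between the inhibitors, with fewer genes tested and TGFBR2 and SMAD7 outside the test. Leaving out 1 library gave 1 to 2 calls among the 9 genes between the inhibitors, with TGFB1 the added one without JQ1 replicate 18.

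Signs turned as follows, and the cause was not tested. With equal totals the log2 differences of JQ1 from DMSO became -0.057 (TGFBR3) and -0.034 (SMAD4), those of I-BET 762 became -0.070 (TGFB1), -0.029 (TIMP1) and -0.084 (SMAD2), and TRIM33 between the inhibitors became -0.048. With equal upper quartiles I-BET 762 gave -0.0099 (TGFB1) and -0.024 (SMAD2). Leaving out 1 library, I-BET 762 against DMSO ranged from -0.10 to 0.14 for TGFB1. Between the inhibitors the ranges were -0.27 to 0.063 (TGFB3), -0.056 to 0.29 (TGFBR2), -0.38 to 0.11 (LTBP2) and -0.027 to 0.30 (FN1), and -0.943 to 0.426 percentage points for the TGFB3 share, which was 0.349 without division by length. TGFB2 and TGFB3 against DMSO kept their call and direction under every alternative run.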
